A study of Mus musculus with 8 samples.

Results

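The 7 genes described here carry iron and calcium across the duodenal epithelium: Cybrd1, Slc11a2, Slc40a1, Heph and Tfrc for iron, Trpv6 and S100g for calcium. They were taken by name from the annotation of the array's gene probes, which gave 12 probes of the 41174 on the array and 7 of the 19360 genes measured. All 7 genes kept at least 1 probe after the filter on dim probes, and 11 of the 12 probes passed it.

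Mouse small-intestinal organoids, crypt-like epithelial structures grown from the gut, were profiled on 8 Agilent arrays with 2 colours in 3 experiments. The study asks how the transcription factors Ascl2 and Tcf7l2 shape the intestinal crypt. Each array paired its own RNA with a control RNA, and every value below is a log2 ratio of own RNA over control unless a level is named. All organoids, controls included, received a 16 h pulse of 4OH-tamoxifen, which activates CreERT2.

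In experiment 1, 2 arrays carried organoids transduced with Ascl2, whose CMV-driven expression the pulse induces, with RNA taken after 24 h, against VillinCreERT2 organoids, in which an intestinal epithelial promoter drives the inducible Cre. The dyes were swapped on replicate 2. In experiment 2, 1 array each carried Tcf7l2null organoids, Tcf7l2null/Ascl2 over expressing organoids and Ascl2 over expressing organoids, all against dsGFP transduced organoids in which the pulse induces GFP. In experiment 3, 1 array carried Ascl2null organoids against VillinCreERT2 organoids. In both deletion models the pulse itself deletes the gene. Experiments 2 and 3 each had a self-self array, with the control RNA in both colours, which measures technical spread. The labels disagree on the experiment 3 self-self array: the genotype field gives VillinCreERT2 and the description Ascl2loxp/loxp organoids. The sources used here do not give which Cre the dsGFP and Tcf7l2null organoids carry, or whether organoids were pooled. Nor do they give when RNA was taken in experiments 2 and 3.

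Dietary iron is reduced at the brush border by Cybrd1 (duodenal cytochrome b), enters the enterocyte through the proton-coupled transporter Slc11a2 (DMT1), and leaves it basolaterally through Slc40a1 (ferroportin), the only known cellular iron exporter, with Heph (hephaestin) oxidising it for transferrin. Tfrc, the transferrin receptor, brings transferrin-bound iron into dividing cells. Calcium enters through the apical channel Trpv6, is buffered and carried by S100g (calbindin-D9k), and is pumped out at the basolateral side. In mouse duodenum, Cybrd1, Slc11a2 and Slc40a1 are known targets of HIF-2alpha, and Trpv6 and S100g of the vitamin D receptor.

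The probes that carry the results are shown by their first 30 of 60 bases, since several of the differences below rest on a single probe or on probes of the same gene that disagree. They read, in the array's own annotation:
Slc40a1: ttctagagcaacaatagtcacaaaagttcc
S100g: ttcttcaaaaagctctcacaatgaacaagt
Cybrd1, brightest: tgtgacgagatgtttagctataaatgtgca
Cybrd1, second: ttctcatgggagtgacagaaaagctgttct
Cybrd1, dimmest: aggtaacatgattatttccaaaagccaaat
Slc11a2, brightest: tgctttaatcccaaccagaaataatcatcc
Slc11a2, second: tgttccctattcacttgattgtcactgaaa
Slc11a2, dimmest: gagactctgaggagcccttcaccacctact

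In mm9 coordinates, the Slc40a1 probe lies at chr1:45965255-45965314 on the minus strand, at position 2980 of its transcript, and the S100g probe at chrX:159400032-159400091, also minus, at position 312. The Cybrd1 probes lie on the plus strand of chromosome 2. The brightest is at chr2:70980706-70980765, transcript position 4930, and the dimmest at chr2:70979339-70979398, position 3563. The second, at position 586, covers 758 bases at chr2:70975664-70976421 and so crosses an intron. The Slc11a2 probes lie on the minus strand of chromosome 15. The brightest, at chr15:100218333-100218392, is annotated to transcript variant 2 at position 2961. The second, at chr15:100223347-100223406, is annotated to transcript variant 1 at position 4055, and the dimmest, at chr15:100240516-100240575, to position 253 of variant 2. Heph and Tfrc were read by probes at chrX:93769563-93769622 and chr16:32632255-32632314, and Trpv6 by one at chr6:41570967-41571026. A second Heph probe, at chrX:93726574-93726633, was well above background on only 3 arrays and lay between -0.33 and 0.13 over all 8. Whether a probe lies in coding or untranslated sequence was not analysed here.

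The probes for the manipulated genes do not bear out all the labels. The Ascl2 probe was -0.31 and 0.12 on the arrays labelled Ascl2 overexpression in experiment 1 and -0.72 on that of experiment 2. It was -0.92 on the Tcf7l2 null array with Ascl2 overexpression, -0.57 with Tcf7l2 loss alone and -1.07 on the Ascl2 null array, against 0.01 and -0.26 on the self-self arrays. It thus lay in the labelled direction on the Ascl2 null array and in the opposite one on both experiment 2 arrays labelled Ascl2 overexpression, and it was lowest on the 3 arrays where Slc40a1 and S100g are high below. The brightest Tcf7l2 probe was -0.34 with Tcf7l2 loss alone and 0.18 with Tcf7l2 loss and Ascl2 overexpression, against 0.37 and -0.34 on the dsGFP and VillinCreERT2 self-self arrays. The sources used here do not give which parts of the genes were added or deleted. Conditions are named by the arrays' labels and every direction rests on them: a wrong label, or a ratio that ran the other way, would change what a value means, and this was not tested. Of all gene probes, 50.1% to 61.1% were well above background in Cy3 and 53.8% to 67.4% in Cy5, and none was saturated. With 1 array for most conditions, the number of arrays limits the precision.

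Iron export and calcium buffering genes stood far above their controls on the same 3 arrays: Tcf7l2 null with Ascl2 overexpression, Ascl2 overexpression in experiment 2, and Ascl2 null. Slc40a1 and S100g were at least 2-fold higher on all 3, and so were 0.358% of all genes. The iron reductase Cybrd1 was at least 2-fold higher with Ascl2 overexpression in experiment 2 and on the Ascl2 null array. No member reached 2-fold on either Ascl2 overexpression array of experiment 1 or with Tcf7l2 loss alone, nor on either self-self array. These conditions have 1 array each, so these ratios stand without replicates and without a test.

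Counted by array, 2 of the 7 members were at least 2-fold higher with Tcf7l2 loss and Ascl2 overexpression, where 1.25% of all genes were higher and 2.15% lower by that much. Of the 7, 3 were higher with Ascl2 overexpression in experiment 2 (background 1.16% higher, 0.962% lower) and 3 on the Ascl2 null array (2.27% higher, 1.63% lower). The count was 0 of 7 on replicate 1 of experiment 1 (0.31% higher, 0.517% lower), on replicate 2 (0.513% higher, 0.679% lower) and on the Tcf7l2 null array (0.408% higher, 0.543% lower). On the dsGFP self-self array 0.0207% of genes lay 2-fold or more from 0 in either direction, and on the VillinCreERT2 self-self array 0.145%. Of the genes beyond 2-fold, 37.5% and 43.0% were higher on replicates 1 and 2 of experiment 1, 42.9% on the Tcf7l2 null array, 36.8% with Ascl2 overexpression added, 54.7% with Ascl2 overexpression in experiment 2 and 58.2% on the Ascl2 null array. By the scanner's own ratio these shares were 60.5%, 32.1%, 48.7%, 55.9%, 57.2% and 50.2%, by the authors' deposited values 63.2%, 28.1%, 45.4%, 51.8%, 55.2% and 50.7%, and with median centring in place of loess 99.5%, 1.15%, 97.1%, 64.5%, 79.0% and 37.4%. The member median was 0.50, 0.48 and 0.51 on the 3 arrays with high members, where the median of all genes was 0.01 on each, and between -0.12 and -0.08 on the remaining 3 arrays with different RNAs.

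**Figure D1:**
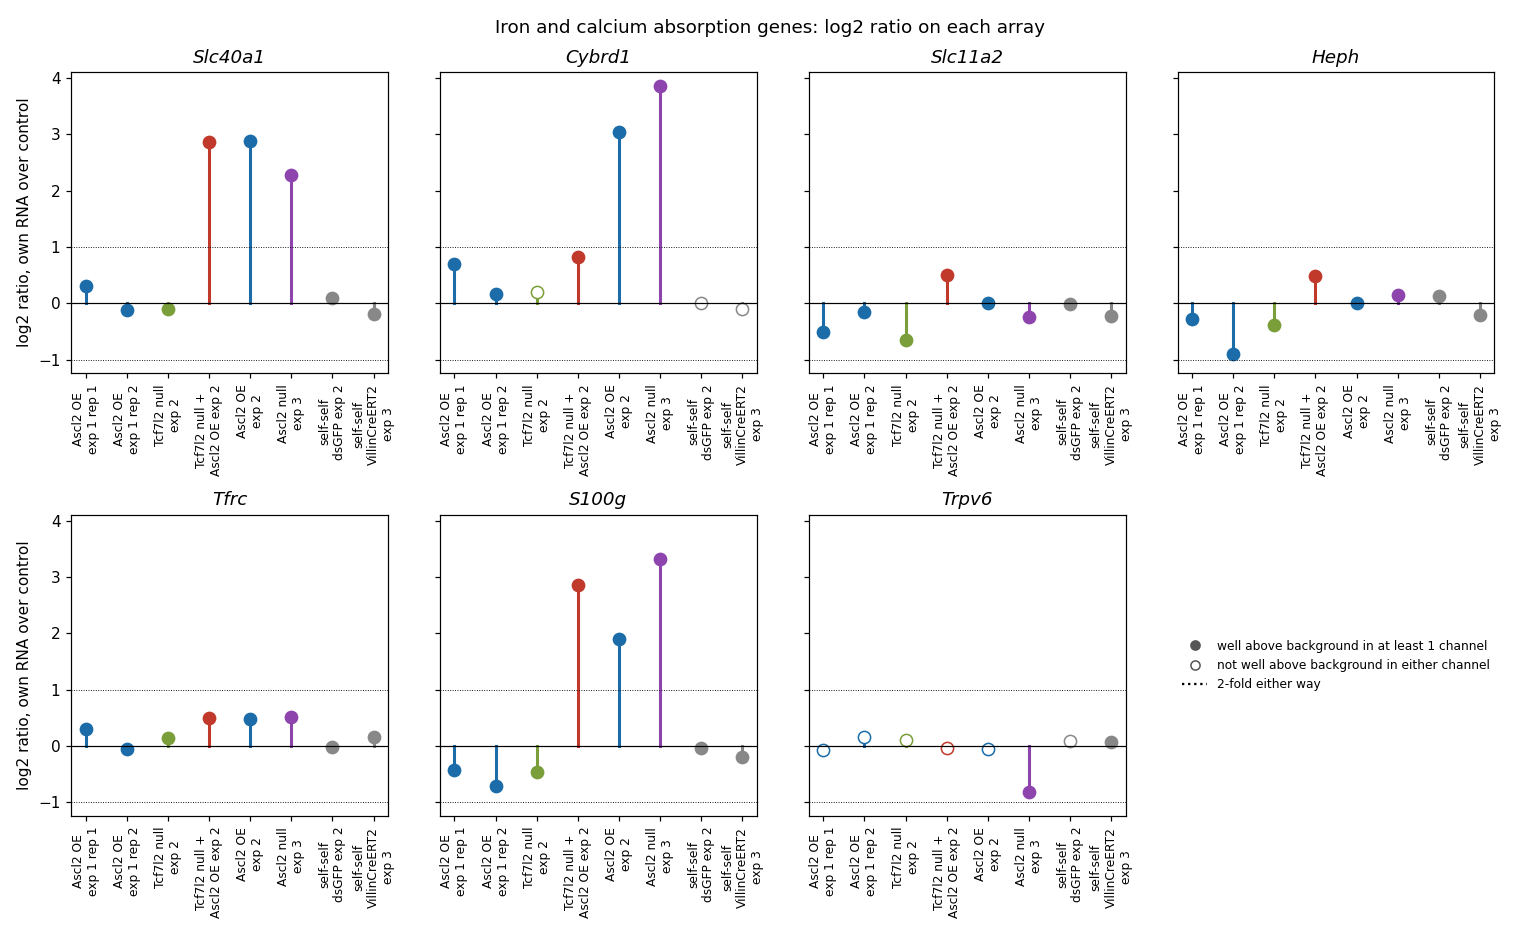
Log2 ratio of own RNA over control for each of the 7 genes on each array, 1 point per array and its brightest probe; dotted lines mark 2-fold and open points were not well above background in either channel. Slc40a1 and S100g exceed the upper line on 3 arrays and Cybrd1 on 2, while Slc11a2, Heph, Tfrc and Trpv6 stay between the lines everywhere.

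Markers of several cell types also stood apart from their controls on these arrays, and some did so on other arrays. Of 10 enteroendocrine markers, 6, 5 and 8 were at least 2-fold higher on the arrays of Tcf7l2 loss with Ascl2 overexpression, Ascl2 overexpression in experiment 2 and Ascl2 null, and their summed level was 1.91, 1.24 and 3.22 times the control. On the self-self arrays that ratio was 1.25 for dsGFP and 0.990 for VillinCreERT2. In experiment 1, 6 and 5 of the 10 were at least 2-fold lower, with list medians of -1.03 and -0.97. On the 3 arrays with high members, tuft markers had 6, 3 and 2 of 8 at least 2-fold higher, with summed levels 2.69, 2.16 and 1.77 times the control. Goblet markers had 0, 0 and 1 of 8 at least 2-fold higher there and 0 as far lower, with medians of 0.11, 0.11 and 0.15. Most crypt stem markers were lower, with 8 of 14, 5 of 14 and 3 of 13 at least 2-fold lower and summed levels of 0.269, 0.545 and 0.579 times the control. The stem list holds Ascl2 itself. At -1.07 it is among those counted on the Ascl2 null array, where it is the deleted gene. The stem marker Aqp4 was 1.46 with Ascl2 overexpression in experiment 2, the only stem marker at least 2-fold higher on the 3 arrays with high members. Summed stem levels were 1.68 and 1.38 times the control in experiment 1 and 1.46 times on the Tcf7l2 null array. Paneth markers were at least 2-fold lower for 6 of 8 on each experiment 2 array with Ascl2 overexpression, with medians of -1.90 with and -1.91 without Tcf7l2 loss. On the Ascl2 null array their median was 0.16, with 2 of 8 at least 2-fold higher, 1 as far lower and a summed level 1.56 times the control. Cell cycle genes had 12 of 16 at least 2-fold lower with Tcf7l2 loss and Ascl2 overexpression. The count was 0 of 17 with Ascl2 overexpression in experiment 2 and 1 of 17 on the Ascl2 null array. Their part in the members' ratios was not tested, and in whole organoids more cells of a type and more RNA per cell cannot be told apart.

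Enterocyte markers were mixed on the Ascl2 null array, with a summed level 1.52 times the control. Of 24, 6 exceeded the control by 2-fold or more and 0 fell as far below it. There 17 of 24 lay above 0, against 16 on the self-self array of that slide. Highest were Alpi at 2.39, Apoa4 at 1.74 and Mttp at 1.54, where that self-self array gave 0.38, 0.71 and 0.23. Lowest were Dpp4 at -0.70, Sis at -0.61 and Lct at -0.58, with self-self values of -0.30, -0.29 and 0.03. With Tcf7l2 loss and Ascl2 overexpression 2 were higher and 1 lower by 2-fold or more, with a sum of 1.19 times the control. With Ascl2 overexpression in experiment 2 none was higher and 7 were lower by that much, with a sum of 0.725 times. The median over the list was 0.10 with Tcf7l2 loss and Ascl2 overexpression, -0.53 with Ascl2 overexpression in experiment 2 and 0.21 on the Ascl2 null array. It was -0.54 and -0.81 in experiment 1 and -0.64 over 23 genes on the Tcf7l2 null array, against -0.13 and 0.05 on the self-self arrays. Markers of the proximal intestine had 2, 2 and 4 of 10 at least 2-fold higher and 1, 1 and 0 at least 2-fold lower. These counts are for Tcf7l2 loss with Ascl2 overexpression, Ascl2 overexpression in experiment 2 and the Ascl2 null array. The summed levels were 1.23, 0.730 and 1.85 times the control. Those lower were Gkn3 at -1.18 on the first of these arrays and Lct at -1.63 on the second. Lct and Rbp2 are on both the proximal and the enterocyte list, so the counts of these lists are not independent. Pdx1, a duodenal transcription factor, was 1.51, 1.85 and 2.31 on these 3 arrays and between -0.27 and 0.07 on the other 5. Of 9 distal markers, 0, 0 and 2 were at least 2-fold higher on the same 3 arrays and 0, 2 and 0 at least 2-fold lower. Their list medians were -0.25, -0.31 and 0.57, while their summed levels were 0.633, 0.469 and 0.708 times the control. The part of the enterocyte, proximal and distal markers in the members' ratios was not tested either. Of the 10 proximal markers, 8 to 10 were well above background in the own channel of every array, and of 9 markers of the distal intestine 6 to 9, so the organoids held RNA of both. Markers of macrophages, fibroblasts, endothelium and erythroid cells had no member at or beyond 2-fold on any array, with list medians between -0.19 and 0.28. Their summed levels were 0.854 to 1.48 times the control on arrays with different RNAs. Adgre1, Pdgfra, Cdh5 and Hbb-b1 had no probe past the filter, whereas Col1a2, Vim, Cd14, Vwf and Epor were well above background on all 8.

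Cybrd1, the ferric reductase of the brush border, had the highest ratio of any member and the least agreement between probes. By its brightest probe it was 0.70 and 0.16 in experiment 1, 0.19 on the Tcf7l2 null array, 0.83 with Ascl2 overexpression added, 3.04 with Ascl2 overexpression in experiment 2 and 3.87 on the Ascl2 null array. The self-self arrays gave 0.01 for dsGFP and -0.10 for VillinCreERT2. The Ascl2 overexpression and Ascl2 null arrays of experiments 2 and 3 thus lie far above the rest, and the array that combines Ascl2 overexpression with Tcf7l2 loss lies just above replicate 1 of experiment 1.

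No control RNA of experiments 2 and 3 was well above background at this probe, so the size of the fold is not settled there. By the plain ratio Cybrd1 was 14.6-fold higher on the Ascl2 null array, 8.25-fold with Ascl2 overexpression in experiment 2 and 1.77-fold with Tcf7l2 loss added. Raising the control channel to the lowest signal counted as well above background on that array changed none of these values. The control's own signal already lay at or above that floor, so they are not bounds set by a detection limit. These folds compare channels across dyes and remain open to dye bias, because experiments 2 and 3 held no dye swap. The Tcf7l2 null array was itself not well above background. By the scanner's own ratio, which is background-subtracted without an offset, the brightest probe was 3.76 with Tcf7l2 loss and Ascl2 overexpression, 5.67 with Ascl2 overexpression in experiment 2 and 6.77 on the Ascl2 null array, and 0.71 on the Tcf7l2 null array. The first of these then also passes 2-fold, as does replicate 1 of experiment 1 at 1.05, and the order of the 6 arrays is the same.

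The other probes of Cybrd1 did not follow. With Ascl2 overexpression in experiment 2 the second probe was 0.04 and the dimmest -0.10, and with Tcf7l2 loss added -0.14 and -0.22. On the Ascl2 null array the second probe was 0.94 and the dimmest 0.60, higher than on any other array. The second probe had 0.02 and -0.08 in experiment 1 and -0.30 on the Tcf7l2 null array, with -0.22 and 0.17 on the self-self arrays. The dimmest was well above background on the Ascl2 null array alone, where its own RNA was 1.51-fold higher than a control that was not well above background. On Ascl2 null organoids all 3 probes were therefore above both self-self arrays, while on Ascl2 overexpression in experiment 2 the value rests on 1 probe.

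Slc11a2, the divalent metal transporter that takes up reduced iron, stayed within 2-fold of its controls by its brightest probe. That probe was -0.51 and -0.16 in experiment 1, -0.65 on the Tcf7l2 null array, 0.50 with Ascl2 overexpression added, 0.00 with Ascl2 overexpression in experiment 2 and -0.24 on the Ascl2 null array, against -0.01 and -0.22 on the self-self arrays. The probe of transcript variant 1 was 1.46, or 2.74-fold, on the Ascl2 null array, against 0.27 on the self-self array of its slide. On that array the probe near the transcript start was 0.14. On this array the probe annotated to variant 1 was thus high and the other probes were not. Which variants the probe near the transcript start detects was not analysed here.

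Elsewhere the Slc11a2 probes ran closer together. The variant 1 probe was -0.02 and -0.34 in experiment 1, -0.30 on the Tcf7l2 null array, 0.64 with Ascl2 overexpression added and 0.09 with Ascl2 overexpression in experiment 2. The probe near the transcript start was -0.05 and 0.07 in experiment 1, -0.38 on the Tcf7l2 null array, 0.26 with Ascl2 overexpression added and -0.12 in experiment 2. All 3 probes were below 0 on the Tcf7l2 null array and above 0 once Ascl2 overexpression was added.

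**Figure D2:**
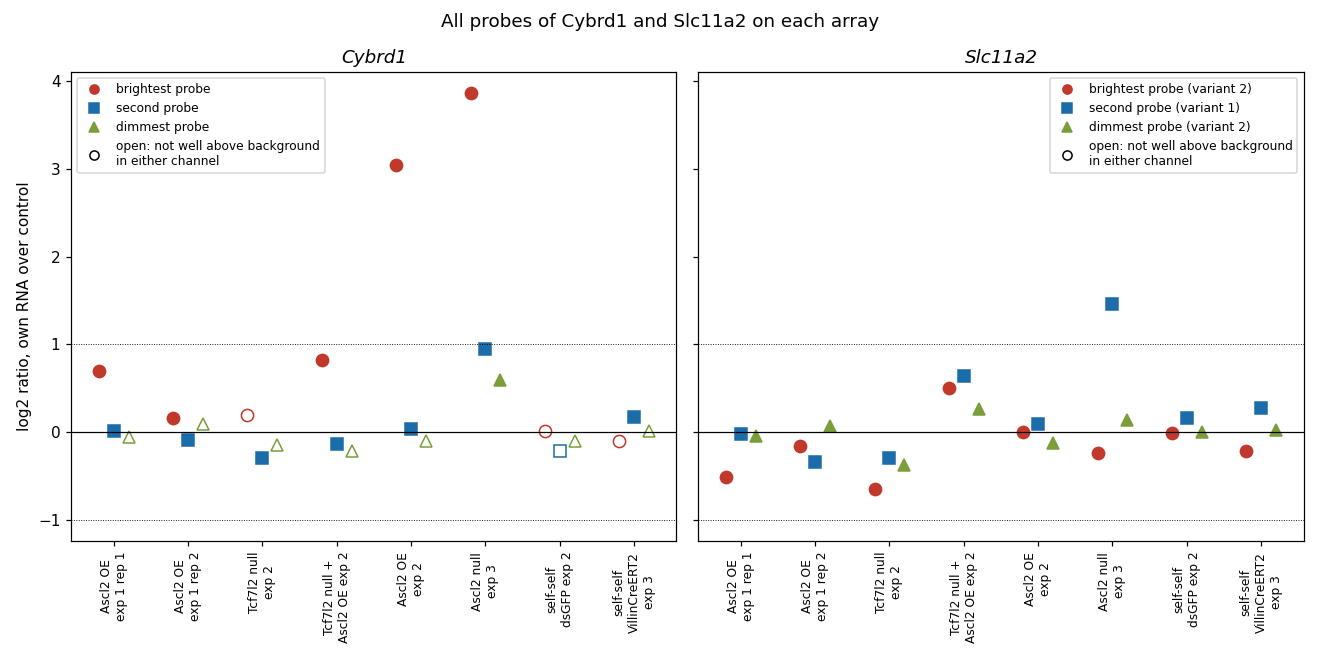
Log2 ratio of own RNA over control on each array for the 3 probes of Cybrd1 (left) and the 3 of Slc11a2 (right); open symbols were not well above background in either channel and dotted lines mark 2-fold. The brightest Cybrd1 probe stands apart from the other two on the Ascl2 overexpression array of experiment 2, and the variant 1 probe of Slc11a2 stands apart on the Ascl2 null array.

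Slc40a1, the iron exporter, separated the 6 arrays with different RNAs into a high and a low set. It was 2.86 on the Tcf7l2 null array with Ascl2 overexpression, 2.89 with Ascl2 overexpression in experiment 2 and 2.27 on the Ascl2 null array, or 7.28-, 7.39- and 4.83-fold. It was 0.30 and -0.12 in experiment 1 and -0.10 on the Tcf7l2 null array, against 0.10 and -0.19 on the dsGFP and VillinCreERT2 self-self arrays. The low set therefore lies in or close to the range of the self-self arrays, and the high set is well clear of it.

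The experiment 2 arrays with Ascl2 overexpression had nearly equal ratios, at 2.86 with and 2.89 without Tcf7l2 loss, and the Ascl2 null array lay below both. The replicates of experiment 1, a dye swap, had an SD of 0.29 (n = 2), which does not measure the spread between single arrays of experiment 2. The own-channel level was 10.72, 10.40 and 11.13 log2 intensity units on the high arrays, against control levels of 7.86, 7.51 and 8.86 there. The scanner's own ratio was 3.66, 3.58 and 2.55 on these arrays. Among 19360 genes Slc40a1 ranked 21 from the top on the Tcf7l2 null array with Ascl2 overexpression, 17 with Ascl2 overexpression in experiment 2 and 73 on the Ascl2 null array.

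Heph, the ferroxidase that works beside the exporter, stayed within 2-fold of its controls. It was -0.27 and -0.90 in experiment 1, -0.38 on the Tcf7l2 null array, 0.48 with Ascl2 overexpression added, 0.00 with Ascl2 overexpression in experiment 2 and 0.14 on the Ascl2 null array. The self-self arrays gave 0.14 and -0.21. Only replicate 2 of experiment 1 came near 2-fold, and replicate 1 was much closer to 0.

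Tfrc, read by 10 spots of 1 probe on every array, stayed within 2-fold of its controls, with a small error between spots. It was 0.50 ± 0.03 (SD over 10 spots) on the Tcf7l2 null array with Ascl2 overexpression, 0.48 ± 0.05 with Ascl2 overexpression in experiment 2 and 0.51 ± 0.04 on the Ascl2 null array. It was 0.30 ± 0.04 and -0.05 ± 0.04 in experiment 1 and 0.14 ± 0.05 on the Tcf7l2 null array, against -0.02 ± 0.04 and 0.16 ± 0.06 on the dsGFP and VillinCreERT2 self-self arrays. The same 3 arrays were thus highest as for Slc40a1, at 1.40- to 1.42-fold. Spots of 1 array share their RNA and dyes, so the SD is that of the print and scan only.

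S100g is the cytosolic calcium carrier. It was 3.33 on the Ascl2 null array, 2.87 with Tcf7l2 loss and Ascl2 overexpression and 1.89 with Ascl2 overexpression in experiment 2, or 10.02-, 7.30- and 3.72-fold. It was -0.42 and -0.71 in experiment 1 and -0.45 with Tcf7l2 loss alone, below the self-self values of -0.03 for dsGFP and -0.20 for VillinCreERT2. The 3 high arrays ran from 1.89 to 3.33, while the replicates of experiment 1 had an SD of 0.20 (n = 2). That SD comes from a dye swap within experiment 1 and does not measure the spread among the high arrays. The Tcf7l2 null array lay between those replicates.

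Own RNA of S100g stood at 15.08, 14.33 and 14.88 log2 intensity units on the 3 high arrays, against 12.21, 12.44 and 11.56 for the controls beside it. In experiment 1 own RNA had 13.00 and 12.82, against 13.42 and 13.53 for the VillinCreERT2 control. S100g ranked 20 of all genes from the top with Tcf7l2 loss and Ascl2 overexpression, 45 with Ascl2 overexpression in experiment 2 and 27 on the Ascl2 null array.

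Trpv6, the apical calcium channel, was measurable in experiment 3 alone. It was -0.81 on the Ascl2 null array, against 0.08 on the VillinCreERT2 self-self array, and both channels of both arrays were well above background. The own level on the Ascl2 null array was 6.68 log2 intensity units, against 7.49 for its control, while both channels of the self-self array had 8.61 and 8.53. By the scanner's own ratio Trpv6 was -1.67 on the Ascl2 null array, beyond 2-fold. The control RNA of the experiment gave a lower level on the Ascl2 null array than on its self-self array. In experiments 1 and 2 neither channel was well above background on any array, and no fold is given. S100g and Trpv6, both of the calcium route, therefore lay on opposite sides of 0 on the Ascl2 null array.

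**Figure D3:**
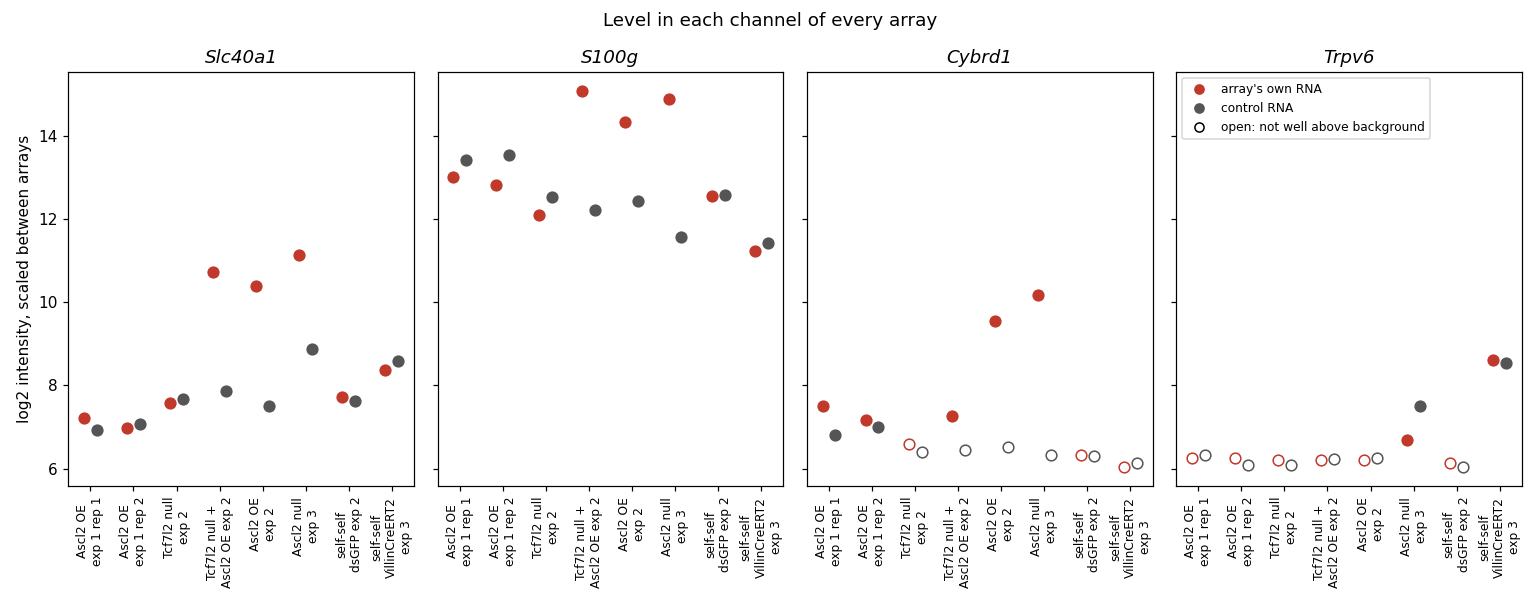
Log2 intensity, scaled between arrays, of Slc40a1, S100g, Cybrd1 and Trpv6 in each channel of every array, with own RNA in red and control RNA in grey (Cy5 and Cy3 on self-self arrays) and open points where a channel was not well above background. Own RNA of Slc40a1 and S100g leaves the controls on 3 arrays, the Cybrd1 controls of experiments 2 and 3 are all open, and Trpv6 is closed in experiment 3 only.

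Since both Ascl2 overexpression experiments carry the same label, the fit over their 3 arrays asked what they share. No member passed limma's test at an adjusted p under 0.05. Cybrd1 was 1.14 ± 0.46 (SE, n = 3 arrays; limma adjusted p = 0.381), Slc40a1 0.87 ± 0.50 (limma adjusted p = 0.563) and S100g 0.13 ± 0.45 (limma adjusted p = 0.949). Heph was -0.46 ± 0.15 (limma adjusted p = 0.291), with a value at or below 0 on 3 of 3 arrays. In that fit 0.062% of all genes passed, 12 in number, and 2466 had an unadjusted p under 0.05, among them Cybrd1 and Heph.

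Within experiment 1 no member passed. The labels do not say that its replicates come from separate cultures, and the p-values cover no more than the variation among these arrays, part or all of which could be technical. S100g was -0.57 ± 0.13 (SE, n = 2 arrays; limma adjusted p = 0.112) and Heph -0.59 ± 0.16 (limma adjusted p = 0.153), each below 0 on both arrays. Slc11a2 was -0.34 ± 0.12 and Cybrd1 0.43 ± 0.14, with limma adjusted p-values of 0.236 and 0.217. These 4 genes had an unadjusted p under 0.05, as had 2954 genes in all, but no member was among the 0.919% of genes that passed. Slc40a1 was 0.09 ± 0.14, Tfrc 0.12 ± 0.12 and Trpv6 0.04 ± 0.12.

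The difference between the experiments was then tested directly, experiment 2 minus experiment 1. Slc40a1 was 2.71 ± 0.26 (SE) higher in experiment 2 (limma adjusted p = 0.0134), Cybrd1 2.50 ± 0.26 (limma adjusted p = 0.0163) and S100g 2.45 ± 0.25 (limma adjusted p = 0.0142). So 3 of 7 members passed upwards, as did 0.502% of all genes, and 0 passed downwards. Slc11a2 (0.48 ± 0.22), Heph (0.45 ± 0.30), Tfrc (0.24 ± 0.22) and Trpv6 (-0.08 ± 0.23) did not pass, with limma adjusted p-values of 0.650 to 0.983. The fit sets a single array of experiment 2 against the spread of the dye swap and the self-self arrays, so slide, control RNA and experiment cannot be told apart. Without replicate 1 of experiment 1, Slc40a1 and S100g lost the call (limma adjusted p = 0.0581 and 0.0592) and Cybrd1 kept it (limma adjusted p = 0.0496). The size for Cybrd1 is not settled, since its control in experiment 2 was not well above background: it was 4.70 by the scanner's own ratio, 4.96 by the authors' deposited values and 1.28 as the mean over its probes (limma adjusted p = 0.0765). For the others, the scanner's own ratio took S100g to an adjusted p of 0.0826 in limma, and centring arrays on their median without loess left no call for any member.

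**Figure D4:**
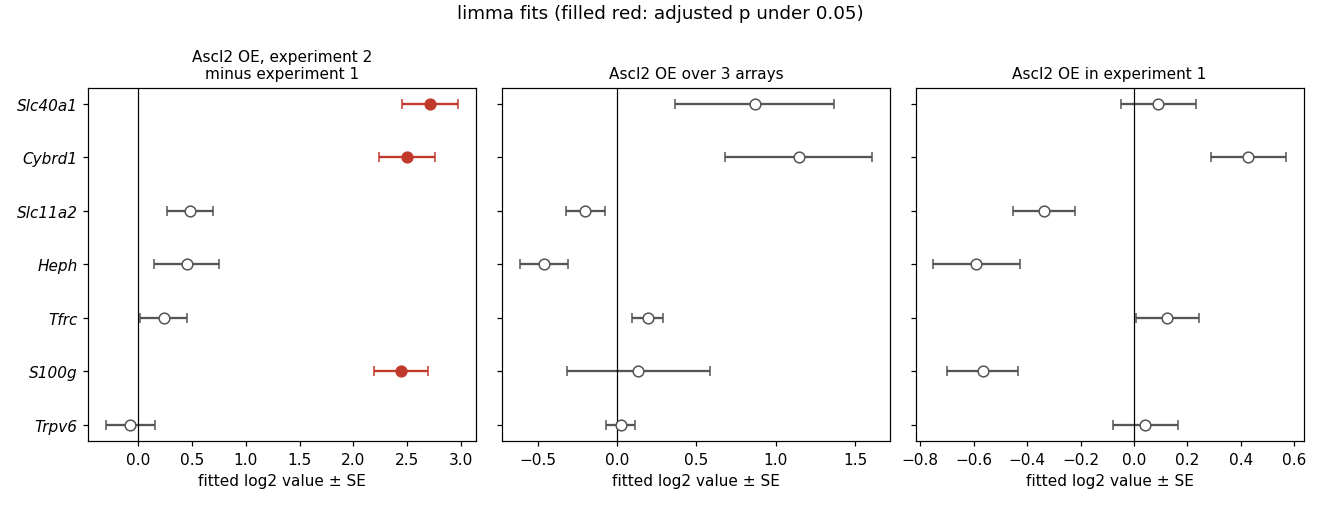
Fitted log2 values with their standard errors for the 7 genes from limma: Ascl2 overexpression in experiment 2 minus experiment 1 (left), over 3 arrays (middle) and in experiment 1 (right); each panel has its own scale. Slc40a1, Cybrd1 and S100g pass in the left panel at 2.45 to 2.71, and no gene passes in the other panels.

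Within experiment 2 the arrays share a control and a dye orientation, so the differences between their ratios show what each change adds to the other, without a replicate. Ascl2 overexpression with Tcf7l2 loss, minus Tcf7l2 loss alone, was 3.32 for S100g, 2.96 for Slc40a1 and 1.15 for Slc11a2, with Heph at 0.87 and Tfrc at 0.36. Cybrd1, whose Tcf7l2 null array was not well above background, had 0.63 here and 3.05 by the scanner's own ratio, so no size is settled for it, and Trpv6 was dim on both arrays. That is 3 of 7 members at least 2-fold higher, where 2.9% of all genes were higher and 4.8% lower by as much. Across the alternatives the count ran from 2 to 4. The other Slc11a2 probes gave 0.94 and 0.64, so the 2-fold mark was passed by 1 of its 3 probes, and their mean gave 0.91.

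Adding Tcf7l2 loss to Ascl2 overexpression gave a different result for the brightest probe of the reductase. Cybrd1 was -2.22 by its brightest probe, the only member beyond 2-fold, where 1.53% of all genes were lower and 0.538% higher by that much. Its other probes, which were near 0 on both arrays, gave -0.18 and -0.12. S100g was 0.97 higher, Slc11a2 0.50, Heph 0.48, Tfrc 0.01 and Slc40a1 -0.02. So on the same pair of arrays the exporter had nearly equal ratios, and the reductase differed by its brightest probe alone.

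Other genes of iron handling were counted from a list of 39, of which 34 were measured. None was at least 2-fold higher in experiment 1, on the Tcf7l2 null array or with Ascl2 overexpression in experiment 2, while 2 were on the Tcf7l2 null array with Ascl2 overexpression and 3 on the Ascl2 null array. At least 2-fold lower were 2 and 3 genes in experiment 1 and 2 on the Tcf7l2 null array, with 0 on the other 3 arrays. The list median lay between -0.17 and 0.13 throughout, against all-gene medians of about 0.

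Fth1, the ferritin heavy chain, was 1.03 with Tcf7l2 loss and Ascl2 overexpression, 0.73 with Ascl2 overexpression in experiment 2 and 1.23 on the Ascl2 null array, and -0.54 and -0.47 in experiment 1. Its partner Ftl1, the light chain, was 0.04, -0.36 and 0.01 on those 3 arrays, with -0.03 and -0.39 on the self-self arrays. Flvcr2, a haem-binding transporter of the same family as the haem exporter Flvcr1, was 1.66 on the first of them, while Flvcr1 was -1.03 and -1.27 in experiment 1 and -1.05 on the Tcf7l2 null array, though -0.71 on the VillinCreERT2 self-self array. Slc46a1, the intestinal folate carrier first described for haem, was -1.20 and -0.67 in experiment 1 and -1.02 with Tcf7l2 loss alone, but 0.68 once Ascl2 overexpression was added. Blvrb, which reduces biliverdin from haem breakdown, was 1.08 on the Ascl2 null array. The haem oxygenase Hmox1 and the ferroxidase Cp stayed between -0.33 and 0.47 on all arrays, and the ferrireductase Steap4 was not measured. Own RNA of Cp was well above background on only 2 of 8 arrays and its control on 5, so its ratios are limited by signal.

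Regulators of the iron genes were read in the same lists. Epas1, which encodes HIF-2alpha, was -0.94 and -1.18 in experiment 1, -0.80 on the Tcf7l2 null array, 0.71 with Ascl2 overexpression added, 0.07 with Ascl2 overexpression in experiment 2 and 1.00 on the Ascl2 null array. Fbxl5, part of the ligase that degrades iron-regulatory protein when iron is plentiful, was -1.09 on replicate 2 of experiment 1, with -0.89 on the VillinCreERT2 self-self array. Of 15 other hypoxia-response genes, 1 was above 0 on each experiment 2 array with Ascl2 overexpression, with list medians of -0.38 with and -0.44 without Tcf7l2 loss, against 0.05 on the dsGFP self-self array. Bnip3, a mitophagy receptor, was -1.02 and -1.40 on these arrays and Ndrg1 -1.03 with Ascl2 overexpression alone. In experiment 1 the list medians were 0.30 and 0.26, with Ankrd37 at 1.27 and Hif1a at -1.03 on replicate 2, and on the Ascl2 null array 0.16, with the oxygen sensor Egln3 at 1.20.

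Among 32 listed genes of calcium handling, 26 were measured, and 0 to 2 were at or beyond 2-fold on any array. On the Ascl2 null array Vdr, the vitamin D receptor, was 1.13 and Cldn2, a claudin of cation-permeable tight junctions, was 1.13. Cldn2 was 0.44 on the self-self array of that slide and -0.89 with Tcf7l2 loss and Ascl2 overexpression. Vdr was 0.90 with Tcf7l2 loss and Ascl2 overexpression, 0.43 with Ascl2 overexpression in experiment 2, -0.17 on the Tcf7l2 null array and -0.13 and 0.14 in experiment 1, against 0.00 and 0.23 on the self-self arrays. Cyp24a1, the vitamin D catabolic enzyme and a classic target of that receptor, lay between -0.10 and 0.10 on all 6 arrays with different RNAs, where its own RNA was well above background on replicate 1 of experiment 1 alone. Atp2b1, the basolateral calcium pump, was 0.46 on the Ascl2 null array and -0.83 on replicate 2 of experiment 1, with -0.45 on the VillinCreERT2 self-self array. Stc2, a stanniocalcin, was 1.13 on replicate 2 of experiment 1 and 0.59 on replicate 1. Trpv5, the close relative of Trpv6, was not measured.

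Few transporters of other metals lay beyond 2-fold. Of 17 measured genes, 2 were at least 2-fold higher, both on the Ascl2 null array: the zinc importer Slc39a5 at 1.41 and the manganese exporter Slc30a10 at 1.22. The self-self array of that slide gave 0.55 for Slc39a5 and 0.01 for Slc30a10. List medians over the 6 arrays ran from -0.21 to 0.18.

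**Figure D5:**
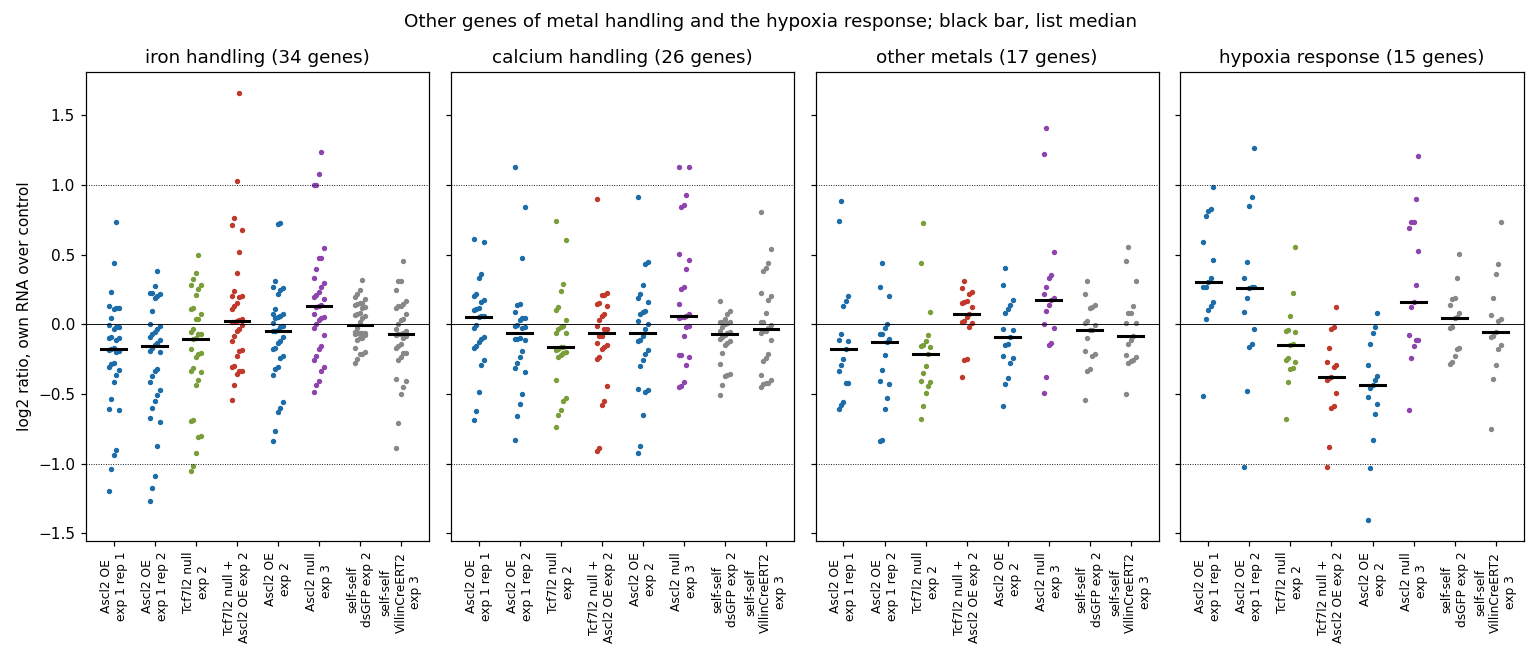
Log2 ratio of own RNA over control for the measured genes of 4 lists on each array, 1 dot per gene, with a black bar at the list median and dotted lines at 2-fold. The iron list has 2 genes above the upper line with Tcf7l2 loss and Ascl2 overexpression and 3 on the Ascl2 null array, and the hypoxia list has medians of -0.38 and -0.44 on the experiment 2 arrays with Ascl2 overexpression.

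Patterns alike were sought among 14660 genes well above background on all 6 arrays with different RNAs, by the root mean square difference of the ratio over these 6. Nearest to Slc40a1 were Dusp16 (0.39), Reg1 (0.42) and Akr1b8 (0.46), and nearest to S100g were Odf3b (0.30), C1qtnf12 (0.47) and Akr1b8 (0.51). Dusp16, a MAP kinase phosphatase, was 2.88, 3.17 and 2.96 on the 3 high arrays. Odf3b was 2.72, 1.74 and 2.68 on them in the same order, and -0.72 and -0.73 in experiment 1. Slc40a1 and S100g themselves lay 0.72 apart, Slc11a2 and Heph 0.37. Cybrd1 had no near match among these genes: Ptprz1, 2210407C18Rik and Echdc3 lay at 0.64, 0.79 and 0.83. On the Tcf7l2 null array Cybrd1 itself was not well above background, and genes as dim as that were not searched. This likeness is a description over 6 arrays, of which 3 share a control.

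Promoter sequence was available for 4 of the 7 members, in 5 windows from RefSeq on GRCm38.p6. The 250 bases before the start of Cybrd1 (chr2:71117804-71118053, plus strand) and of S100g (chrX:162964600-162964849, minus strand) are shown because these genes were high together on the Ascl2 null array and on Ascl2 overexpression in experiment 2. Searched on both strands were the E-box forms CAGCTG and CAGGTG, of the kind bound by factors of the Ascl2 class, the Tcf element CTTTGAT and the hypoxia-response core ACGTG, and no match overlapped another. Capitals mark a match.
Cybrd1: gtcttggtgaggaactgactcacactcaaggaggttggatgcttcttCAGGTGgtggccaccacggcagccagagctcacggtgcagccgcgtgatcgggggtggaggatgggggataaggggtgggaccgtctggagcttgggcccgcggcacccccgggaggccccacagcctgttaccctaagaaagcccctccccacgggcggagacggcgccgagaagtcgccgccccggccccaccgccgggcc
S100g: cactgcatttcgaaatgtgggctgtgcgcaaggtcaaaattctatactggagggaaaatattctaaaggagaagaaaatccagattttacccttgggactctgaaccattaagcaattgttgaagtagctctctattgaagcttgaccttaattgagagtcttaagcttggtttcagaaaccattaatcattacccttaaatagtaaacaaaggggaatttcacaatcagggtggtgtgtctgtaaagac
The Cybrd1 window held 1 match to CAGGTG, 203 bases before the start, and the S100g window held none of the 4. Over all 32851 windows of this length, 17.2% held CAGGTG, 13% CAGCTG, 16.6% ACGTG and 3.21% CTTTGAT. The Trpv6 window held 1 CAGCTG, and the pair of Tfrc windows 1 CAGGTG and 1 ACGTG.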

How the data were processed

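The deposited scanner files, from Agilent Feature Extraction 10.5.1.1 per the file headers, hold the median spot and background intensity of each dye in linear units, and the scanner's dye-normalized ratio as a log10 value, multiplied here to log2. Log2 ratios of own RNA over control also come as the authors' deposited values. In that table column medians lie between -0.01 and 0.03, it was not centred again, and all its values of experiments 2 and 3 lie within 0.02 of the scanner ratio. In experiment 1 8.70% and 8.49% of its values differ by more, with r = 0.861 and, on the dye-swapped replicate 2 set against Cy5 over Cy3, -0.846; the cause was not tested.

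Background was corrected by normexp (offset 50) on median signals, leaving out spots more than 20 below their local background, a limit chosen after seeing the data. Arrays were normalized within themselves by loess in limma 3.58.1 (R 4.3.3). Every ratio was turned to own RNA over control, so replicate 2 of experiment 1 had its sign changed. Spots of a probe were averaged. Probes well above background in either channel on at least 2 of 8 arrays were kept, and the probe with the highest mean intensity stood for a gene, with 27644 probes and 19360 genes tested. Levels per channel were scaled between arrays by their mean intensity (Aquantile).

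Ascl2 overexpression was fitted with a dye term and the self-self arrays, once over 3 arrays and once with a value for each experiment, whose difference was the direct test, by limma with Benjamini-Hochberg adjustment over all genes. Other conditions have 1 array and no test. All 7 members are named. From the 4 gene lists, those named are the 3 highest and 3 lowest on an array among genes at or beyond 2-fold there, with 11 fixed neighbours of the members. The single markers Alpi, Apoa4, Mttp, Dpp4, Sis, Lct, Gkn3, Pdx1 and Aqp4 were named after their values were seen. Patterns alike are the 3 nearest genes for members beyond 2-fold on any array. The members and all lists were chosen with earlier results of these data known. The fits were also run on simulated data whose errors were independent between arrays. These data lack the correlation within slides (estimated at 0.588), so they cannot show how the fits behave under it. Promoters and their coordinates are from RefSeq on GRCm38.p6, and probe coordinates, in mm9, from the array's annotation.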

Additional observations from a re-analysis of the deposited data

Results flagged for a closer look

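Ascl2 overexpression gave different values in experiments 2 and 1 for 3 of the 7 genes, by limma's test of the difference itself. Slc40a1 was 2.71 higher in experiment 2 (2.80 in experiment 2, 0.09 in experiment 1), Cybrd1 2.50 higher (2.93 in experiment 2, 0.43 in experiment 1) and S100g 2.45 higher (1.88 in experiment 2, -0.57 in experiment 1). The Cybrd1 control of experiment 2 was not well above background, and its difference ran from 1.28 to 4.96 over the alternatives. The experiments used different controls, dsGFP transduced organoids in experiment 2 and VillinCreERT2 organoids in experiment 1, and different slides. RNA was taken after 24 h in experiment 1, and the time is not given for experiment 2. Control, slide and any difference in time cannot be told apart from one another. No condition had enough arrays for a search for single outlying arrays.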

How the results depend on the processing

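Slc40a1, S100g and Cybrd1 stayed beyond 2-fold on each array where they were called, in 9 of 9 alternatives, at 2.76 to 3.66, 2.78 to 3.58 and 2.04 to 2.55 for Slc40a1 (Tcf7l2 loss with Ascl2 overexpression, Ascl2 overexpression in experiment 2, Ascl2 null), 2.85 to 3.36, 1.88 to 2.34 and 3.13 to 3.52 for S100g, and 1.54 to 5.67 and 2.41 to 6.77 for Cybrd1 in the last 2. Members beyond 2-fold numbered 1 (scanner ratio, median centring) in place of 0 on replicate 1 of experiment 1, 1 (authors' deposited values) and 2 (median centring) in place of 0 on replicate 2, and 2 in place of 1 for Tcf7l2 loss added to Ascl2 overexpression (median centring). Median centring shifted the median of all genes by 0.44, -0.23 and 0.16 on replicates 1 and 2 of experiment 1 and the Tcf7l2 null array.

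Counts of genes past the threshold moved far more. Over 3 arrays, 12 genes became 0 with the scanner ratio, the authors' values, median centring, every spot kept (chosen after seeing the data) or a dye term per slide, 22 without the dim-probe filter, 20 with the mean of all probes, 176 without a dye term and 1011 with slide as a random block (estimated correlation 0.588), and 0 to 178 leaving out 1 array. In experiment 1, 178 became 2 (scanner), 25 (authors' values), 0 (median centring or every spot kept), 50 (no background correction), 278 (no filter) and 556 (no dye term), and 3 to 4 leaving out 1 array. For experiment 2 minus experiment 1, 146 became 0 (median centring), 80 (every spot kept), 320 (no dye term) and 27 to 147 leaving out 1 array of experiment 1. The calls lost for members in that difference are given beside them; under median centring limma's adjusted p was 0.646 for Slc40a1, 0.756 for Cybrd1 and 1.00 for S100g.

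Some signs turned. Over 3 arrays Trpv6 became -0.24 (scanner) and -0.044 (every spot kept), and ran from -0.15 (without replicate 2 of experiment 1) to 0.056 leaving out 1 array. S100g became -0.068 (dye term per slide) and -0.0051 (random block), and ran from -0.57 (without experiment 2) to 0.85. In experiment 1 Trpv6 became -0.27 (scanner), -0.028 (median centring) and -0.035 (every spot kept), and ran from -0.16 (without replicate 2) to 0.25, and Slc40a1 from -0.16 (without replicate 1) to 0.35. In the difference Trpv6 became 0.12 (scanner) and 0.10 (median centring), and ran from -0.38 to 0.026 (without replicate 2), and Tfrc became -0.043 (median centring). The cause was not tested. A dye term per slide was not run for the last 2 fits, which it leaves no residual degrees of freedom, and without the experiment 2 array there is no difference. No paired analysis was possible because only 1 group holds more than 1 replicate number. Signal over background limits Cybrd1 controls in experiments 2 and 3 and Trpv6 in experiments 1 and 2.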
